A study of Mus musculus with 22 samples.

Results

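Expression was described for 5 genes of the neurotrophin system, taken by their symbols from a count table of 55385 genes: Ntf3, which encodes the ligand NT-3, Ntrk2 and Ntrk3, which encode the receptor tyrosine kinases TrkB and TrkC, Ngfr, which encodes the p75 neurotrophin receptor, and Sort1, which encodes sortilin. The rule that chose them uses no measured value, although earlier results of these data were known when it was made. Of these genes, 0 lie in the segment that is triplicated in the mice. Both the hippocampus (HIP) and entorhinal cortex (EC) were taken from 11 adult male mice on a mixed B6C3B background, 5 wild-type (wt) and 6 Ts66Yah littermates, with a library from each region of each mouse (22 in all). Ts66Yah mice model Down syndrome: they carry, as a freely segregating minichromosome, an additional copy of mouse chromosome 16 from Mir155 to the telomere, and the part of chromosome 17 present in the parental Ts65Dn minichromosome was removed. The line descends from a single founder, no agent was given, and each library holds the RNA of all cells of a dissected region. The comparison of genotypes asks whether the additional copy goes with other levels of these genes in either region, and the comparison of regions shows in which region each gene is more abundant.

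Neurotrophins are made as precursors that are cleaved by proprotein convertases. The mature forms act mainly through Trk receptors, with NT-3 preferring TrkC and BDNF preferring TrkB, whereas the p75 receptor binds all of them and, together with sortilin, binds the uncleaved precursors. In the adult forebrain TrkB is known for its role in synaptic plasticity, and it is made both by neurons, mostly as the kinase form, and by astrocytes, mostly as a truncated form without a kinase. Counts per gene do not separate these forms.

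The total count per library was 25.9 to 50.1 M (median 34.7 M). Levels are given as CPM (the count relative to the library total), scaled with TMM factors of 0.953 to 1.05. Over 80 expressed genes of the triplicated segment, the median log2 level relative to the wt mean was -0.06 to 0.03 in wt libraries and 0.55 to 0.63 in Ts66Yah libraries, so every library went with its label. Markers of dentate granule cells, the defining neurons of the dentate gyrus, summed to 251 to 327 CPM in HIP libraries and 13.2 to 17.1 CPM in EC libraries, and markers of cortical projection neurons to 143 to 209 CPM in HIP and 472 to 783 CPM in EC.

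On the GRCm38 build, Ntf3 (ENSMUSG00000049107) lies at chr6:126101412-126166910 on the minus strand, Ntrk2 (ENSMUSG00000055254) at chr13:58806569-59133970 on the plus strand, Ntrk3 (ENSMUSG00000059146) at chr7:78175959-78738012 on the minus strand, Ngfr (ENSMUSG00000000120) at chr11:95568818-95587735 on the minus strand and Sort1 (ENSMUSG00000068747) at chr3:108284082-108361511 on the plus strand. All are protein-coding. GENCODE lists 20 transcripts of Ntrk3, 10 of Ntrk2, 3 each of Ntf3 and Sort1, and 1 of Ngfr. An antisense gene, Gm12523, shares 338 bases of exon with Sort1. Reads in these shared bases cannot be assigned to either gene if strand was not used in counting. The other genes that overlap the spans of Ntrk2 and Ntrk3 share no exon bases with them.

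The bases before the start were read for the 3 members found in the RefSeq promoter table (GRCm38.p6), whatever their regional levels. Of these, Ntf3 and Ngfr were lower in the EC than in the HIP, and Ntrk2 was higher there. Ntrk3, which was also lower in the EC, and Sort1 were not in the table. Whether the bases or motifs bear on the regional levels was not tested. Each sequence is on the strand of the gene, 5′ to 3′, and holds no base of an annotated exon of its gene. Capitals mark the GC box GGGCGG, found on either strand. The Ntf3 bases lie inside the span of the gene, at chr6:126164961-126165210, before the more downstream of its 2 starts in the table (126164960), and describe this internal start rather than the 5′ end of the gene. The bases before the upstream start (126166744) are not shown, because an annotated exon begins 84 bases into that window. The other windows lie at chr11:95587736-95587948 for Ngfr and at chr13:58806319-58806568 for Ntrk2.
Ntf3: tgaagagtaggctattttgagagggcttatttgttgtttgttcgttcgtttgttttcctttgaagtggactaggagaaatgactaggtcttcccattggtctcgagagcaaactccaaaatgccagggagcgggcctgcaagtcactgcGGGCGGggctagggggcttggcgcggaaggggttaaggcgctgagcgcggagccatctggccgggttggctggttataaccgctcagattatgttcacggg
Ngfr: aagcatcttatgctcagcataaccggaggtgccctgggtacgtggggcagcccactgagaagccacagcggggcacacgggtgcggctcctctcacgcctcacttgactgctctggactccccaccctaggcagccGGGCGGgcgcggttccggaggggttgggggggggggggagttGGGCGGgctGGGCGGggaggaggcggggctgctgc
Ntrk2: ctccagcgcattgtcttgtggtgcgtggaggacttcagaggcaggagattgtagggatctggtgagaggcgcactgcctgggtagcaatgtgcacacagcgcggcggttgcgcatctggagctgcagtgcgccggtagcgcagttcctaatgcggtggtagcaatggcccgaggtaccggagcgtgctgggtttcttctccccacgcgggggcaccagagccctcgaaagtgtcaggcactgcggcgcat

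The 213 bases before Ngfr held 3 GC boxes, the 250 bases before the internal Ntf3 start held 1 and those before Ntrk2 held 0. Of 32851 RefSeq promoters, 32.7% held a GC box in the same 250 bases and 27.4% in the 213 bases that correspond to the Ngfr window. The GC content was 70.9% for Ngfr, 62.8% for Ntrk2 and 54% for Ntf3, against medians of 51.6% over windows of 213 bases and 52.4% over windows of 250. CpG dinucleotides numbered 19 before Ntrk2 and 14 before each of Ngfr and Ntf3, where the medians were 6 over 250 bases and 4 over 213. Neither TGACG, the core of the CREB site, nor TATAAA was found on either strand in the 3 windows, and these motifs occurred in 17.8% and 12.4% of the promoters.

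Divided by the length of all annotated exons, the levels of the 5 genes fell in the same order in both regions. In wt HIP, Sort1 stood at 118 ± 6.73 CPM per kb (SD, n = 5), Ntrk2 at 32.0 ± 1.63, Ntrk3 at 8.60 ± 0.897, Ntf3 at 4.67 ± 0.719 and Ngfr at 0.923 ± 0.144. In wt EC the same levels per length were 110 ± 9.43 for Sort1, 47.1 ± 3.14 for Ntrk2, 5.58 ± 0.967 for Ntrk3, 1.82 ± 0.598 for Ntf3 and 0.310 ± 0.0702 for Ngfr. The nearest neighbours were Ntrk3 and Ntf3 in the HIP, and there the lowest wt library of Ntrk3 (7.05 CPM per kb) still lay above the highest of Ntf3 (5.42). Among the neurotrophin genes outside the 5, Bdnf stood near Ntrk3, at 8.95 CPM per kb in wt HIP and 6.88 in wt EC, and Ntf5, which encodes neurotrophin 4, at 0.110 and 0.0501.

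The regions differed in 4 of the 5 genes. Ntrk2 was 1.47-fold higher in the EC than in the HIP, whereas Ntrk3 was at 0.650 of its HIP level, and Ngfr and Ntf3 were at 0.336 and 0.390 of their HIP level in wt mice. Sort1 was at 0.935 of its HIP level in wt mice, which did not pass the test. The regions differ in many genes: 47.7% of the 17935 genes tested in wt mice passed an edgeR quasi-likelihood test at an adjusted p under 0.05 (23.4% higher and 24.3% lower in the EC), and 54.0% of the 18043 tested in Ts66Yah mice did (26.4% higher and 27.5% lower). The median absolute log2 difference over all genes tested was 0.30 in wt and 0.29 in Ts66Yah mice. The share of all genes whose regions do not overlap, or that differ in the same direction in every mouse, was not counted. Such statements below therefore only describe the single genes. In bulk tissue, fewer cells of a type and less RNA per cell cannot be told apart.

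**Figure D1:**
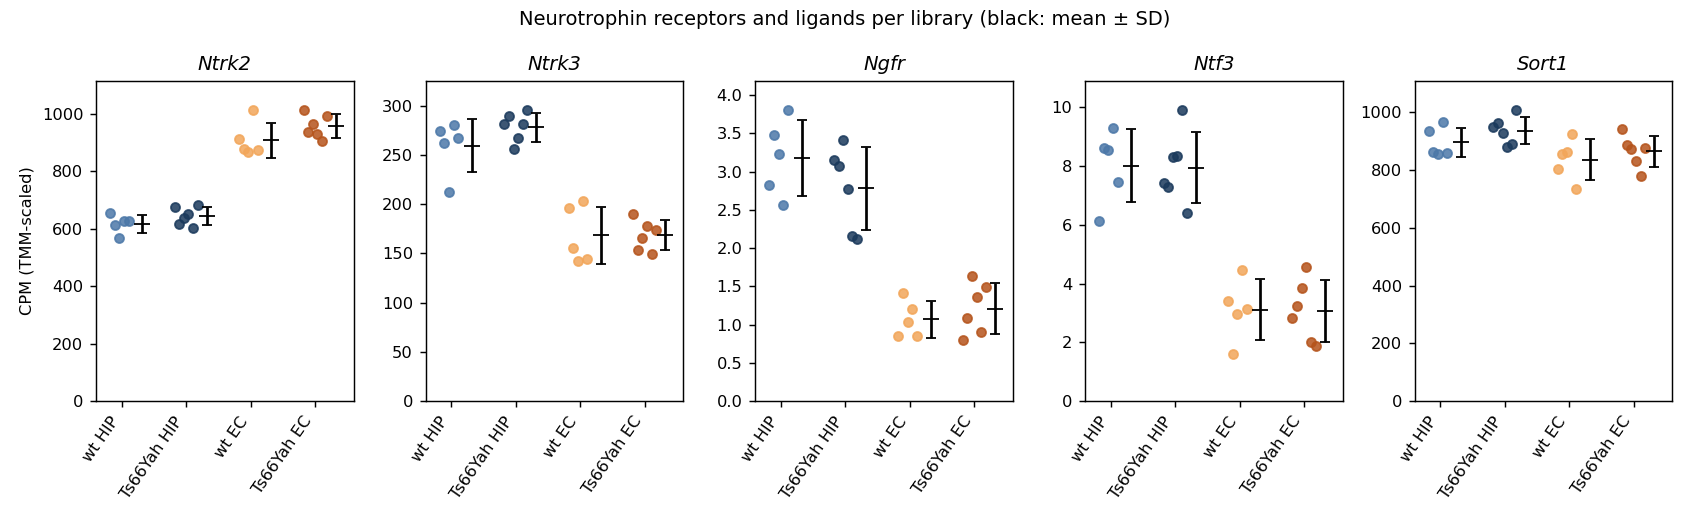
Level of each gene in the 22 libraries, in TMM-scaled CPM on a linear axis from 0, by genotype and region (points: libraries; black: mean ± SD). The EC libraries lie above all HIP libraries of the same genotype for Ntrk2 and below them for Ntrk3, Ngfr and Ntf3, and the genotypes overlap within each region for all 5 genes.

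Ntf3, the ligand of TrkC, was measured at 6.13, 8.61, 8.53, 9.29 and 7.47 CPM in wt HIP libraries 1 to 5 and at 3.40, 1.60, 2.97, 4.46 and 3.14 CPM in the EC libraries of the same mice. In Ts66Yah mice the lowest, median and highest level were 6.41, 7.87 and 9.89 CPM in the HIP and 1.87, 3.03 and 4.57 CPM in the EC. Every HIP library lay above every EC library in both genotypes. The log2 fold change of EC against HIP was -1.36 (SE 0.21, 95% interval -1.82 to -0.90) in wt mice, with an edgeR adjusted p of 0.000186, and -1.37 (SE 0.20, interval -1.79 to -0.95) in Ts66Yah mice, with an adjusted p of 3.56e-05. Within single mice the log2 difference ranged from -2.43 to -0.85, and all 11 mice had less Ntf3 in the EC. Counts of Ntf3 were 53 to 435 per library. In the EC the SD was 32.9% of the mean in wt and 34.5% in Ts66Yah mice, where counting error alone gives 9.61% and 9.82%.

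Ntrk3, the receptor that NT-3 prefers, stood at 275, 262, 213, 281 and 267 CPM in wt HIP libraries 1 to 5 and at 196, 156, 142, 203 and 144 CPM in the EC of the same mice. In Ts66Yah mice it ranged from 256 through a median of 281 to 295 CPM in HIP libraries, and the EC libraries spanned 150 to 190 CPM around a median of 169. The regions did not overlap in either genotype, although in wt mice the lowest HIP library (replicate 3) was only 1.05 times the highest EC library. The log2 fold change of EC against HIP was -0.62 (SE 0.11, interval -0.87 to -0.38, edgeR adjusted p = 0.000596) in wt and -0.73 (SE 0.06, interval -0.86 to -0.60, adjusted p = 1.67e-07) in Ts66Yah mice. All 11 mice had less Ntrk3 in the EC, with log2 differences from -0.91 to -0.47.

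Ntrk2 went the other way. The wt HIP libraries 1 to 5 gave 654, 614, 568, 627 and 627 CPM, and the wt EC libraries 913, 877, 869, 1013 and 873 CPM. The lowest, median and highest level in Ts66Yah mice were 601, 645 and 684 CPM in the HIP and 905, 952 and 1013 CPM in the EC. The lowest EC library exceeded the highest HIP library 1.33-fold in wt and 1.32-fold in Ts66Yah mice. EC against HIP gave a log2 fold change of 0.56 (SE 0.06, interval 0.42 to 0.69, edgeR adjusted p = 1.05e-05) in wt and 0.57 (SE 0.05, interval 0.47 to 0.67, adjusted p = 1.43e-07) in Ts66Yah mice. Within single mice EC exceeded HIP 1.39- to 1.61-fold, in 11 of 11 mice, and this spread between mice was the narrowest among the 4 genes that differed (SD of the log2 difference 0.07, against 0.17 for Ntrk3, 0.48 for Ngfr and 0.54 for Ntf3).

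Ngfr had the lowest level of the 5 genes, with 26 to 165 counts per library. Its level was 2.83, 3.48, 3.23, 2.57 and 3.80 CPM in wt HIP libraries 1 to 5 and 0.851, 1.42, 1.03, 1.20 and 0.851 CPM in the EC libraries of those mice. In Ts66Yah mice it was 2.12, 2.93 and 3.42 CPM (lowest, median and highest) in the HIP and 0.796, 1.22 and 1.63 CPM in the EC. No EC library reached the level of any HIP library of its genotype, and all 11 mice had less in the EC, although the log2 difference per mouse ranged widely, from -2.16 to -0.51. EC against HIP gave a log2 fold change of -1.57 (SE 0.18, interval -1.96 to -1.19, edgeR adjusted p = 1.18e-05) in wt and -1.20 (SE 0.19, interval -1.61 to -0.79, adjusted p = 0.000107) in Ts66Yah mice. Counting error alone gives 16.4% and 15.8% of the mean in the wt and Ts66Yah EC, where the SD was 22.6% and 27.5%. Cholinergic neurons of the basal forebrain are known for high Ngfr, and of their 6 markers Chat, Slc18a3, Lhx8, Isl1 and Gbx1 averaged under 0.5 CPM in every group. The 6 markers summed to 0.453 to 1.43 CPM over the HIP libraries and 1.32 to 3.95 CPM over the EC libraries.

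Sort1 was the most even of the 5 genes between regions. Its level was 935, 861, 857, 965 and 859 CPM in wt HIP libraries 1 to 5 and 803, 857, 861, 925 and 734 CPM in the EC libraries, and the ranges overlapped. In Ts66Yah mice it was 881, 940 and 1007 CPM in the HIP and 781, 876 and 941 CPM in the EC, again with overlap. The log2 fold change of EC against HIP was -0.10 (SE 0.07, interval -0.25 to 0.05, edgeR adjusted p = 0.273) in wt and -0.12 (SE 0.05, interval -0.23 to -0.01, adjusted p = 0.0664) in Ts66Yah mice. With the mouse as a block, which uses the pairing of both regions of a mouse, the Ts66Yah difference passed the threshold at the same size (log2 -0.12, edgeR adjusted p = 0.0271), and it also passed without Ts66Yah EC replicate 1 (log2 -0.14, adjusted p = 0.0349). Sort1 was lower in the EC in 10 of 11 mice, with log2 differences from -0.23 to 0.01.

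Several cell type markers moved with the regions. Besides the neuronal markers above, the summed level of 6 oligodendrocyte markers was 7232 to 10526 CPM over the HIP libraries and 1410 to 3501 CPM over the EC libraries, and that of 4 markers of CA2 pyramidal cells was 186 to 240 CPM in the HIP and 93.4 to 140 CPM in the EC. Choroid plexus markers (6 genes) summed to 111 to 3299 CPM in the HIP and 9.54 to 41.6 CPM in the EC, and Folr1, Otx2 and Slc4a5 averaged under 0.5 CPM in the EC. Striatal markers (6 genes) summed to 57.4 to 78.9 CPM in the HIP and 140 to 280 CPM in the EC. For 10 astrocyte markers the ranges met, at 5149 to 5823 CPM in the HIP and 5525 to 6541 CPM in the EC, but single markers went different ways. Slc1a2, which makes up most of this sum, averaged 2758 CPM in wt HIP and 3256 CPM in wt EC, and Gfap 378 and 93.9 CPM. The 6 markers of inhibitory neurons summed to 733 to 883 CPM over the HIP libraries and 885 to 1030 CPM over the EC libraries. These ranges were only just apart, and the single markers differed. In wt mice Vip averaged 22.5 CPM in the HIP and 74.9 CPM in the EC, Gad1 410 and 417 CPM, and Pvalb 35.4 and 34.4 CPM. The wt means of Gad2, Slc32a1 and Sst were higher in the EC. Of the EC libraries, wt replicate 2 had the highest sums of striatal (280 CPM), choroid plexus (41.6 CPM), oligodendrocyte (3501 CPM) and cholinergic markers (3.95 CPM), together with the highest Ngfr and the lowest Ntf3 level in wt EC. Without it, the log2 fold change of EC against HIP in wt mice was -1.69 for Ngfr (edgeR adjusted p = 1.21e-05) and -1.19 for Ntf3 (adjusted p = 8.30e-05). The part of these cell types in the regional differences of the 5 genes was not tested.

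Since the Trk receptors moved in opposite directions, the balance between them changed with region. The ratio of Ntrk2 to Ntrk3 counts, which needs no scaling between libraries, averaged 2.35 in HIP and 5.59 in EC libraries (geometric means over 11 mice). The ratio is not corrected for exon length (19292 bases for Ntrk2 and 30170 for Ntrk3). Its size is therefore not that of the transcripts, and only its change between groups is read. In wt mice it was 2.24 to 2.67 (HIP) against 4.65 to 6.12 (EC), and in Ts66Yah mice 2.13 to 2.50 against 5.21 to 6.10. The log2 ratio rose by 1.25 from HIP to EC (SD of the differences 0.17, n = 11 mice), in 11 of 11 mice, with p = 0.0009766 in a two-sided exact permutation test by sign flips, the smallest p that 11 mice allow (0.00293 adjusted over the 6 ratio tests). Both of these genes also passed the regional test singly, so the ratio describes the same difference and is no separate evidence.

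The ratio of Sort1 to Ngfr counts, the proneurotrophin co-receptors, likewise not corrected for length, averaged 314 in HIP and 763 in EC libraries (geometric means). It was 226 to 376 in wt HIP and 605 to 944 in wt EC, and 272 to 475 and 534 to 1182 in Ts66Yah mice. The log2 ratio rose by 1.28 (SD 0.49, n = 11) in 11 of 11 mice, with the same p of 0.0009766 in the exact permutation test (0.00293 adjusted). Ngfr passed the regional test singly and Sort1 differed little between regions, so this ratio too restates a difference already given and is no separate evidence. It carries the counting error of Ngfr, and no HIP library overlapped an EC library of its genotype.

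**Figure D2:**
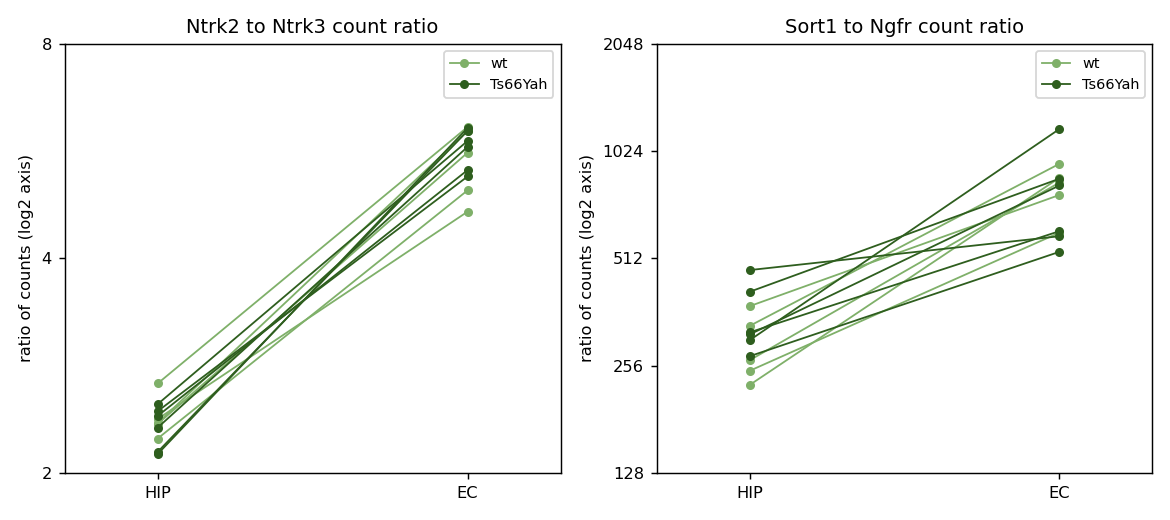
Ratio of Ntrk2 to Ntrk3 counts (left) and of Sort1 to Ngfr counts (right) in the HIP and EC of each mouse, on log2 axes, with a line per mouse (light: 5 wt; dark: 6 Ts66Yah). Both ratios rise from HIP to EC in all 11 mice, and the genotypes overlap in each region.

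Between genotypes, none of the 5 genes passed the test in either region. In the HIP, 0.591% of the 18452 genes tested passed (109 genes), and 0 of the 5 members did. In the EC, 0.283% of 17658 passed (50 genes), and again 0 of the 5 did. The lowest unadjusted edgeR p among the members was 0.143 in the HIP (Ntrk3) and 0.208 in the EC (Ntrk2), and 0 of the 5 passed with DESeq2 or limma voom. With the HIP and EC counts of each mouse summed, 0.573% of 20233 genes passed and 0 of the 5 members did. The median absolute log2 difference over all genes tested was 0.09 in each region. The summed levels of every marker list overlapped between genotypes within each region.

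For the ligand Ntf3 the means were 8.004 ± 1.23 CPM in wt HIP and 7.94 ± 1.19 CPM in Ts66Yah HIP, and 3.11 ± 1.03 and 3.06 ± 1.06 CPM in the EC (SD, n = 5 wt and 6 Ts66Yah throughout). The log2 fold change of Ts66Yah against wt was -0.01 (SE 0.12, interval -0.28 to 0.25, edgeR adjusted p = 0.982) in the HIP and -0.02 (SE 0.27, interval -0.59 to 0.56, adjusted p = 0.998) in the EC. The EC interval spans 0.663- to 1.47-fold, so that sizable differences in either direction were not detectable there.

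Of the Trk receptors, Ntrk2 averaged 618 ± 31.5 CPM in wt HIP and 644 ± 32.6 CPM in Ts66Yah HIP, a log2 fold change of 0.06 (SE 0.05, interval -0.05 to 0.17, edgeR adjusted p = 0.678). Its means in the EC were 909 ± 60.7 and 958 ± 41.1 CPM (log2 0.07, SE 0.06, interval -0.05 to 0.20, adjusted p = 0.934). These intervals bound a difference in Ntrk2 to between 0.969- and 1.12-fold in the HIP and 0.968- and 1.15-fold in the EC. Ntrk3 averaged 259 ± 27.1 and 278 ± 14.7 CPM in the HIP (log2 0.10, SE 0.07, interval -0.04 to 0.24, adjusted p = 0.582). Here 4 of the 6 Ts66Yah libraries lay above all 5 wt libraries, and the other 2 within their range. Without wt replicate 3, whose Ntrk3 level of 213 CPM was the lowest in the HIP, the log2 fold change was 0.04. In the EC the means of Ntrk3 were 168 ± 29.2 and 168 ± 15.3 CPM (log2 0.0003, SE 0.10, interval -0.22 to 0.22, adjusted p = 0.9999).

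Ngfr had the widest genotype intervals beside Ntf3. Its mean was 3.18 ± 0.496 CPM in wt HIP and 2.78 ± 0.539 CPM in Ts66Yah HIP (log2 -0.20, SE 0.15, interval -0.53 to 0.13, edgeR adjusted p = 0.663), with 2 of 6 Ts66Yah libraries below all wt libraries. In the EC the means were 1.07 ± 0.242 and 1.21 ± 0.333 CPM (log2 0.18, SE 0.22, interval -0.30 to 0.66, adjusted p = 0.975), with 2 of 6 Ts66Yah libraries above and 1 below all wt libraries. The EC interval of Ngfr reached from 0.811- to 1.58-fold. Sort1 averaged 895 ± 50.9 and 937 ± 47.6 CPM in the HIP (log2 0.07, SE 0.05, interval -0.04 to 0.17, adjusted p = 0.666) and 836 ± 71.4 and 865 ± 54.3 CPM in the EC (log2 0.05, SE 0.07, interval -0.10 to 0.19, adjusted p = 0.975). All 5 genes overlapped between genotypes in both regions.

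**Figure D3:**
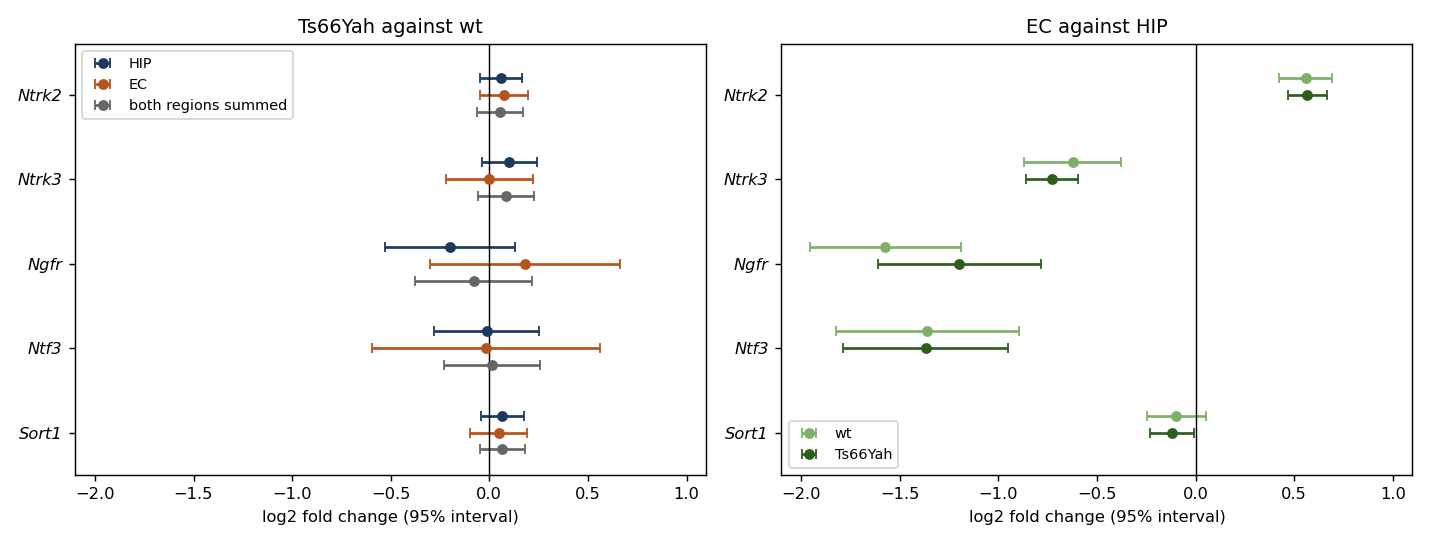
Log2 fold changes with 95% intervals from edgeR, for Ts66Yah against wt in the HIP, in the EC and over both regions summed (left), and for EC against HIP in wt and Ts66Yah mice (right). Every genotype interval includes 0, and the regional intervals of Ntrk2, Ntrk3, Ngfr and Ntf3 do not.

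Summed over both regions of each mouse, the log2 fold change of Ts66Yah against wt was 0.06 for Ntrk2 (interval -0.06 to 0.17), 0.08 for Ntrk3 (-0.06 to 0.23), -0.08 for Ngfr (-0.38 to 0.22), 0.01 for Ntf3 (-0.23 to 0.26) and 0.07 for Sort1 (-0.05 to 0.18), with edgeR adjusted p from 0.720 to 0.982. The difference of the genotype effect between regions was tested as an interaction over all 22 libraries. In the edgeR test 0% of 19074 genes passed, and 388 had an unadjusted p under 0.05. This fit had no term for the mouse, so it did not use the pairing of both regions of a mouse. With the mouse as a block 0 genes passed as well, and DESeq2 and limma voom also gave 0 genes. Of the members, Ngfr had the largest estimate (EC effect minus HIP effect, log2 0.38, SE 0.27, interval -0.17 to 0.93, edgeR adjusted p = 1).

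The receptor ratios did not pass a genotype test either. The ratio of Ntrk2 to Ntrk3 was 2.39 in wt and 2.32 in Ts66Yah HIP (log2 difference -0.05, two-sided exact permutation p = 0.452, adjusted p = 0.548) and 5.46 and 5.70 in the EC (0.06, exact permutation p = 0.457, adjusted p = 0.548). The ratio of Sort1 to Ngfr was 284 and 342 in the HIP (0.27, exact permutation p = 0.180, adjusted p = 0.359) and 795 and 737 in the EC (-0.11, exact permutation p = 0.602).

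The animal numbers in the labels fall into a lower and a higher range, with 2 wt and 2 Ts66Yah mice in the lower and 2 wt and 4 Ts66Yah mice in the higher, and 1 wt mouse in neither. What the ranges stand for is not given. In the HIP, the log2 difference between genotypes for Ntrk3 was 0.29 in the lower range and -0.004 in the higher, and for Ngfr it was -0.65 and -0.01. Ntrk2 and Sort1 had positive values in both ranges in the HIP (0.12 and 0.04 for Ntrk2, 0.14 and 0.03 for Sort1), and Ntf3 had negative ones (-0.11 and -0.09). In the EC the values were 0.12 and 0.03 for Ntrk2, 0.12 and 0.0001 for Ntrk3, -0.05 and 0.22 for Ngfr, -0.17 and -0.07 for Ntf3, and -0.05 and 0.10 for Sort1.

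The other genes of the pathway were given by lists of 47 genes, of which 46 passed the filter on low counts within each region. Between genotypes, 0 of the 46 passed the edgeR test in either region, with 3 at an unadjusted p under 0.05 in each, where 11.9% (HIP) and 6.25% (EC) of all genes had such a p. Their median log2 fold change was 0.02 (HIP) and 0.01 (EC). DESeq2 called 1 of them in the HIP, Frs3, a docking protein of Trk receptors (log2 -0.39, adjusted p = 0.0329), 0 in the EC and 1 over both regions, Rtn4r, a receptor of myelin inhibitors (log2 -0.60, adjusted p = 0.0450). DESeq2 called 2.06%, 0.476% and 1.85% of all genes in these comparisons, so that 1 pathway gene in the HIP and 1 over both regions is near the share among all genes. Between regions, 10 of the 46 were higher and 12 lower in the EC of wt mice, or 47.8%, close to the 47.7% of all genes. In Ts66Yah mice 15 were higher and 14 lower, or 63% beside 54.0% of all genes.

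Bdnf, the ligand of TrkB, was at 55.6 ± 7.28 CPM in wt HIP and 42.7 ± 14.9 CPM in wt EC, which did not pass the test (log2 -0.38, edgeR adjusted p = 0.109). Among the 4 sorting receptors related to Sort1, Sorcs1 rose from 15.95 ± 1.89 to 46.6 ± 6.19 CPM (log2 1.55, adjusted p = 1.56e-07) and Sorcs3 from 52.7 ± 2.36 to 73.9 ± 15.0 CPM (log2 0.49, adjusted p = 0.00266), while Sorl1 and Sorcs2 did not pass. The list for precursor processing had 2 members higher and 2 lower among 8. Of these, Pcsk1, a proprotein convertase of regulated secretion, was higher (log2 1.17, adjusted p = 6.76e-05) and Pcsk6, a convertase of the constitutive pathway, was lower (log2 -1.15, adjusted p = 1.44e-06).

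Of 20 Trk adaptors and effectors, 3 were higher and 5 lower in wt EC. Shc3, a neuronal Shc adaptor, was at 20.2 ± 2.26 CPM in wt HIP and 39.0 ± 5.64 in wt EC (log2 0.95, edgeR adjusted p = 1.23e-05), and Gab1, a docking protein for PI3 kinase and Shp2, at 41.0 ± 3.64 and 18.1 ± 2.03 CPM (log2 -1.18, adjusted p = 4.40e-07). Of 12 p75 adaptors and co-receptors, 3 were higher and 5 lower. Bex1, which binds the p75 receptor, was higher (log2 0.83, adjusted p = 9.08e-05), as was Lingo1, a co-receptor of p75 for myelin inhibitors (log2 0.76, adjusted p = 0.000195). In Ts66Yah mice these 8 genes passed in the same direction, with log2 fold changes of 1.42 for Sorcs1, 0.53 for Sorcs3, 1.24 for Pcsk1, -1.11 for Pcsk6, 0.996 for Shc3, -1.17 for Gab1, 0.87 for Bex1 and 0.85 for Lingo1.

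**Figure D4:**
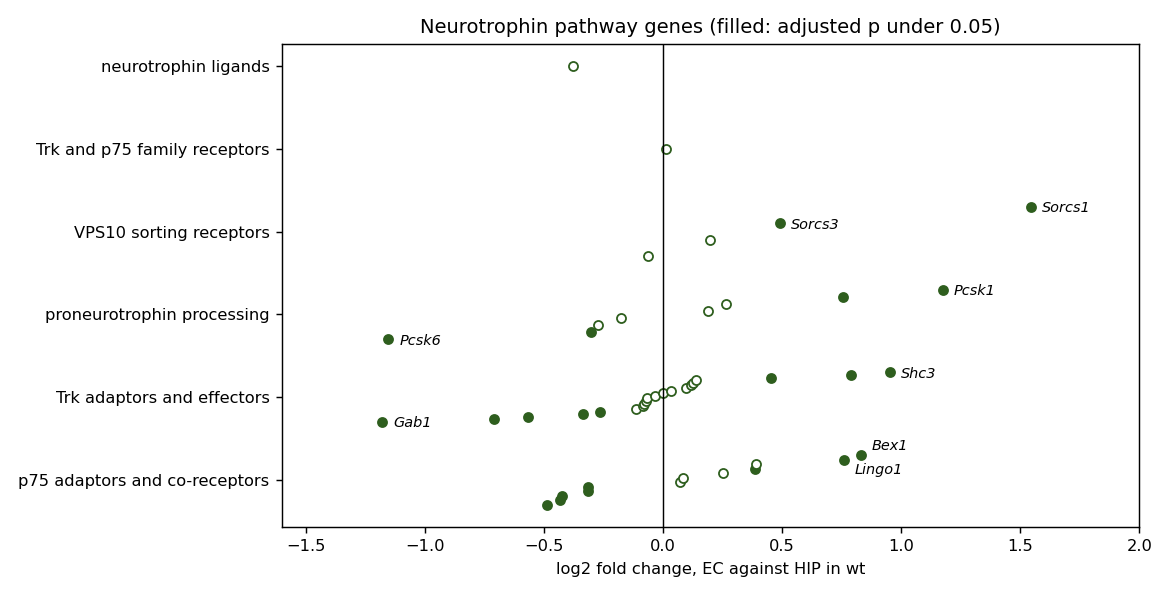
Log2 fold change of EC against HIP in wt mice for the 46 tested pathway genes outside the 5 members, by list (filled: edgeR adjusted p under 0.05; labels: the named genes). Higher and lower genes occur side by side, 10 and 12 in all, with Sorcs1 at 1.55 the highest and Gab1 at -1.18 the lowest.

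The genes whose log2 CPM was most like that of each member were taken from 14925 genes by Pearson correlation over the 22 libraries, which share mice and fall into 2 regions. They were 9330182L06Rik, Fzd3 and Rims1 for Ntrk2 (each r = 0.98), Ryr2 (0.97), Plxna4 (0.97) and Grin2a (0.96) for Ntrk3, Adgrv1, Tgfa and Ubxn4 for Ngfr (each 0.94), Slc29a4 (0.96), Fgf13 (0.95) and Rgs14 (0.95) for Ntf3, and Zfp106 (0.89), Ralgapa1 (0.88) and 2610507B11Rik (0.87) for Sort1. Rgs14 is also 1 of the 4 CA2 markers above. After each region mean was subtracted, the most alike included Grm5 (0.85) and Lancl3 (0.83) for Ntrk2, and were Fzd3 (0.86), Nf1 (0.85) and B230334C09Rik (0.84) for Ntrk3, Slc35d3 (0.76), Entpd3 (0.72) and Atp7b (0.69) for Ngfr, Cdhr1 (0.79), Slc29a4 (0.77) and Fgf13 (0.75) for Ntf3, and Ogfod1 (0.89), Abi2 (0.88) and Ube3c (0.88) for Sort1. Slc29a4 and Fgf13 were among the 3 most alike to Ntf3 by both measures.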

How the data were processed

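RNA-Seq counts of 22 libraries (HIP and EC of 5 wt and 6 Ts66Yah mice) were analysed. The authors deposited raw counts per gene, for which reads mapped with Hisat2 to GRCm38 (mm10) were assigned to Ensembl genes by HTSeq-count. The submitters' processing notes name bcl2fastq 2.17.1.14, and the versions of Hisat2 and HTSeq-count and the strand setting are not given in the sources used here. The kit marks strand. The labels name a poly(A) selection, whereas the methods name ribosomal depletion as well. The authors also deposited DESeq2 and FCROS tables of their own comparisons (fold changes, rank scores, p-values), which were not used. The number of unmapped columns was 0. Gene names, spans and lengths came from GENCODE M21, another annotation release of the same build, in which 55144 of the 55385 identifiers were found.

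Tests were made with edgeR 4.0.16 in R 4.3.3 (TMM, filterByExpr, quasi-likelihood F-test, Benjamini-Hochberg adjustment over all genes tested, threshold 0.05), within each region for genotype and within each genotype for region. Log2 CPM used a prior count of 2. Ratios were compared by exact permutation over all 462 splits of the mice or 2048 sign flips. The SDs of levels hold the spread between mice together with counting error. The intervals give the uncertainty of a log2 fold change. Libraries of a group differed beyond counting error (lowest chi-square per gene 9.62). HIP and EC libraries of a mouse carry the same animal number, and their deviations from the group means correlated at r = 0.20 to 0.61 in 11 of 11 pairs. The main regional and interaction fits did not use this pairing, and fits with the mouse as a block were alternatives. The edgeR steps were tested on simulated data.

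Alternatives were DESeq2 1.42.0, limma voom 3.58.1, RLE factors, other filters, blocks, all libraries in one fit and leaving out each library. Members and gene lists were chosen with earlier results of these data known. Pathway genes were named if they passed a genotype test, or were the 2 per list with the largest regional difference in wt mice among those that passed with a mean of at least 1 CPM. For each member, the 3 most similar genes were named. Frs3 and Rtn4r were named after their values were seen. Some items that these rules cover are not reported here, and the counts of pathway genes leave them out.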

Additional observations from a re-analysis of the deposited data

Results flagged for a closer look

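Ntrk3 in wt HIP had 1 library far from the other 4: replicate 3 stood at 213 CPM, and the nearest other library was at 262 CPM. This gap was 0.722 of the range of the group, above the limit of Dixon's test for 5 samples. It was the only one of 28 groups of member levels and ratios, where chance alone picks out about 1 in 20. Replicate 3 also had the lowest Ntrk2 level in wt HIP, at 568 CPM. The genotype fold change of Ntrk3 in the HIP ranged from 0.04 to 0.13 (log2) when each library was left out, and did not pass the test in any of these fits.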

How the results depend on the processing

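The regional calls of Ntrk2, Ntrk3, Ngfr and Ntf3 kept their direction and passed the threshold under all 18 alternatives in wt and all 20 in Ts66Yah mice, and 0 of the 5 members passed a genotype test under any of the 19 alternatives run in each region. Upper-quartile factors and, for the regional comparisons, 1 fit over all libraries were chosen after seeing the data. The number of genes called between genotypes moved from 109 to 370 in the HIP with DESeq2 (187 of them higher in Ts66Yah, against 81 of 109), from 50 to 108 in the EC, where 1 fit over all libraries gave 79, and from 116 to 363 over both regions. DESeq2 called 1 pathway gene in the HIP (Frs3) and 1 over both regions (Rtn4r). Sort1 in Ts66Yah mice passed in the regional test with the filter of 1 CPM (log2 -0.13), with upper-quartile factors (-0.13) and with the replicate block (-0.12), and leaving out each library gave -0.14 to -0.088. The causes were not tested.

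The replicate block for genotype, a fit that also left out Ts66Yah replicate 6, gave 61 genes in the HIP and 67 over both regions. The block by animal number range, a fit that also left out wt replicate 1, gave 68 in the HIP. The part of the omitted mouse in these numbers was not separated from that of the block. wt and Ts66Yah mice share only a number: same-numbered libraries deviated together with r above 0.1 in 4 of 10 pairs. The replicate block changed no other call of a member or named gene. Signs turned only where the main value was small, the largest being -0.11 (log2) for the ratio of Sort1 to Ngfr in the EC. The turned values reached up to 0.16, for the interaction of Ntf3 with a library left out. With the replicate block Ntf3 went to 0.050 (HIP) and 0.098 (EC), and elsewhere to 0.0044 in the EC with limma voom, and to -0.059 over both regions with the range block. Its interaction went to 0.030 with limma voom and 0.015 without a filter. The ratio of Ntrk2 to Ntrk3 in the HIP turned to 0.044 (log2) in the higher range, and that of Sort1 to Ngfr in the EC to 0.0012 in the lower.

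Leaving out each library or mouse in turn gave log2 fold changes of Ntf3 of -0.090 to 0.045 (HIP), -0.18 to 0.15 (EC) and -0.045 to 0.075 over both regions, and of Ntrk3 of -0.051 to 0.084 in the EC. The interaction ranged over -0.16 to 0.16 for Ntf3, -0.0094 to 0.059 for Ntrk2 and -0.058 to 0.026 for Sort1. Pathway genes called in the HIP numbered 0 to 1, with Rtn4r called without Ts66Yah HIP replicate 5. Per length of the longest transcript the levels were 131 and 122 CPM per kb for Sort1 in wt HIP and EC, 70.7 and 104 for Ntrk2, 13.2 and 8.54 for Ntrk3, and 5.40 for Ntf3 in the HIP, with the order of the genes unchanged in both regions. Depth limits mainly Ngfr.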

Other observations

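Rtn4r, which encodes the Nogo receptor, a partner of p75 in binding myelin inhibitors, was singled out after its values were seen. It lies on chromosome 16 outside the triplicated segment. In the HIP it stood at 73.4, 69.6, 55.7, 64.4 and 78.1 CPM in wt libraries 1 to 5 and at 40.9, 48.6, 43.5, 55.5, 20.1 and 44.8 CPM in Ts66Yah libraries 1 to 6. The lowest wt library in the HIP (55.7 CPM) lay just above the highest Ts66Yah library (55.5 CPM). The share of all genes whose genotypes lie apart in this way was not counted. In the EC the levels were 94.5, 95.1, 79.0, 55.7 and 122 CPM in wt and 63.4, 58.6, 61.4, 87.1, 39.2 and 65.4 CPM in Ts66Yah mice, with overlap. Ts66Yah replicate 5 was the lowest in both regions.

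The log2 fold change of Rtn4r was -0.69 in the HIP (edgeR adjusted p = 0.146), -0.51 in the EC (0.685) and -0.59 over both regions (0.254), so it did not pass. Over the alternatives it was -0.78 to -0.55 in the HIP (adjusted p 0.0221 to 0.298), -0.64 to -0.38 in the EC (0.280 to 0.978) and -0.70 to -0.47 over both regions (0.0450 to 0.471). It passed in 1 of 19 alternatives in the HIP, without Ts66Yah HIP replicate 5 (-0.55, edgeR adjusted p = 0.0221), in 0 of 19 in the EC and in 1 of 18 over both regions, with DESeq2 (-0.60, adjusted p = 0.0450).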
